A study of Homo sapiens with 36 samples.

Results

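In HepG2 cells exposed to 10 mM acetaminophen, 374 of 18919 measured genes had an effect of the high dose that changed sign between 12 and 72 h. They were chosen by measured values: the mean log2 level of 3 arrays at 10 mM minus that of 3 DMSO arrays had to be at least 0.4 in one direction at 12 h and at least 0.4 in the opposite direction at 72 h. A difference of 0.4 on this scale is a 1.32-fold difference. The directions are kept apart throughout. In 135 genes, called early-high here, the level at 10 mM was above DMSO at 12 h and below it at 72 h. In the other 239, called early-low, it was below DMSO at 12 h and above it at 72 h.

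HepG2 is an established human liver tumour line, and acetaminophen (APAP, paracetamol) is an analgesic that harms the liver in overdose. The treatments compared were 10 mM APAP, 0.5 mM APAP and a solvent control with 0.5% DMSO, each given in fresh medium to nearly confluent cultures. Cells were taken at 12, 24, 48 and 72 h, with 3 arrays for each of the 12 combinations, 36 arrays in all. The labels call the replicates biological. They do not settle whether the APAP medium also held DMSO, and the extraction text names 24 h for all samples while titles and characteristics give 4 times, which were used here. RNA was measured on Affymetrix 3' arrays, and the deposited values are log2 levels per Ensembl gene. HepG2 is a single tumour line without the other cells of the liver, and no zero-hour or untreated culture was used here.

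In hepatocytes acetaminophen is conjugated with glucuronic acid and sulfate, and cytochrome P450 enzymes turn a part of it into a reactive quinone imine that glutathione takes up. When glutathione runs out, the quinone imine binds proteins and mitochondria are injured. HepG2 cells are known for low cytochrome P450 activity and they divide in culture, which adult hepatocytes rarely do. A treated-minus-control difference can change sign because the treated level moves, because the control level moves, or because both do, so the levels in each treatment are given beside the differences. The Ensembl identifiers could not be paired with gene names, since 0 of the 18919 matched the reference table. No gene is therefore named or given a role, 4 identifiers are given as examples, and the liver, cell cycle and stress gene lists and the cell type markers drawn up for this work were not run.

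Some arrays stood apart. The spiked-in dap control was weak, below a mean log2 level of 7, on 6 arrays: replicate 1 at 10 mM at 12, 48 and 72 h, replicate 2 at 10 mM at 24 h, and replicate 1 of DMSO at 24 and 48 h. The 3' end of the beta-actin control exceeded its 5' end by 3.63 on replicate 2 of 0.5 mM at 48 h and by 3.97 on replicate 3 of 0.5 mM at 72 h, against 1.49 to 2.45 on the other arrays. Arrays of a group correlated at 0.991 or more over all genes, and no 2 arrays correlated above 0.998. Replicate 1 of DMSO at 48 h also differed from its partners in the genes described here, as given below. The main counts of calls that rest on such arrays, the choice of genes and the classes built on it are given with and without them. Given with all arrays only are the counts of arrays without overlap and the unadjusted counts. The same holds for the split of changes between DMSO and 10 mM and for genes that kept their sign. With the weak arrays left out of the choice, an alternative added after seeing the data, 158 genes would have been early-high and 259 early-low, with 118 of the 135 and 213 of the 239 among them.

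Most effects of 10 mM present at 12 h did not turn. Of 2298 genes at least 0.4 above DMSO at 12 h, 1258 (54.7%) were still at least 0.4 above it at 72 h, 905 (39.4%) lay between the thresholds, and the 135 early-high genes made up 5.875%. Among 2106 genes at least 0.4 below DMSO at 12 h, 1107 (52.6%) were still below it at 72 h, 760 (36.1%) lay between, and the 239 early-low genes made up 11.35%. Turned effects thus took a larger share of the genes that began low than of those that began high. Of 14515 genes between the thresholds at 12 h, 9.7% were at least 0.4 below DMSO at 72 h and 8.85% at least 0.4 above it. These shares come from the values that chose the genes and carry no test. The early-high genes nearest the threshold had differences of 0.65 at 12 h and -0.40 at 72 h, and of 0.40 and -0.67. Just outside lay a gene with 0.39 and -0.39 and a gene with 0.397 at 12 h and -0.68 at 72 h. The early-low genes nearest the threshold had -0.40 and 0.75, and -0.40 and 0.74. Just outside were genes with -0.54 and 0.395 and with -0.44 and 0.396.

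The median difference moved in steps from one side of 0 to the other. For early-high genes the median of 10 mM minus DMSO was 0.64 after 12 h (range 0.40 to 3.11), then 0.39 (-0.73 to 2.95), -0.38 (-1.97 to 1.52) and, after 72 h, -0.66 (-3.20 to -0.40). For early-low genes it was -0.71 (range -2.88 to -0.40), -0.39 (-2.74 to 0.61), 0.58 (-0.65 to 3.22) and 0.90 (0.41 to 5.44) at the same times. The end values at 12 and 72 h follow from the choice of genes, while those at 24 and 48 h come from arrays that did not choose them. Over all 18919 genes the median difference lay between -0.0125 and 0.0131 at each time. The upper tail at 72 h was the longest part of either set, with an upper quartile of 1.74 in the early-low genes, and the lines of single genes show this fan.

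**Figure D1:**
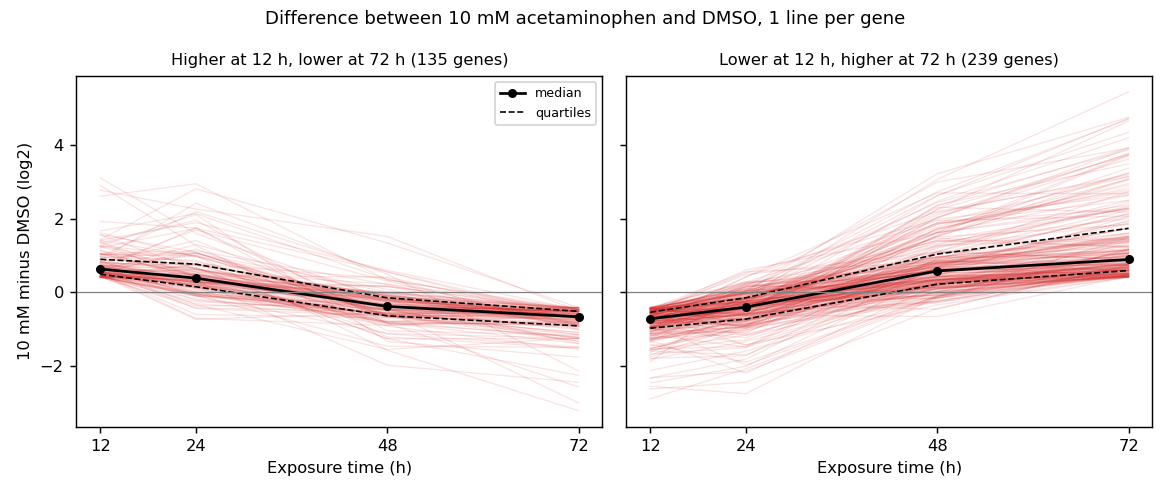
Mean log2 level at 10 mM acetaminophen minus that in DMSO (vertical axis, log2) against exposure time (h), with a thin line for each early-high gene (left, 135 genes) and early-low gene (right, 239 genes), the median as points and the quartiles as dashed lines. The values at 12 and 72 h chose the genes; at 24 and 48 h the medians were 0.39 and -0.38 on the left and -0.39 and 0.58 on the right.

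The median levels behind these differences moved mainly in the solvent and low-dose cultures. The 12 and 72 h values of DMSO and 10 mM chose the genes, so a crossing between them was fixed in advance. The levels at those times are a description only. The median level of the early-high genes in DMSO was 5.81 ± 0.08 after 12 h, then 6.27 ± 0.06, 7.01 ± 0.30 and, after 72 h, 7.43 ± 0.13 (mean ± SD of 3 array medians, log2). At 10 mM it was 6.58 ± 0.13, 6.83 ± 0.13, 6.56 ± 0.17 and 6.52 ± 0.04 at the same times. At 0.5 mM it was 5.79 ± 0.02, 6.09 ± 0.09, 6.69 ± 0.08 and 7.20 ± 0.16. The DMSO and 0.5 mM medians thus climbed over the whole course. The 10 mM medians stayed within a narrow band that the DMSO medians crossed between 24 and 48 h. Single genes moved more at 10 mM than these medians. From 12 to 72 h, 17.0% of early-high genes rose by 0.4 or more at 10 mM and 37.8% fell by as much.

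The early-low genes ran the other way. Their median level in DMSO was 8.15 ± 0.03 after 12 h, then 7.71 ± 0.01, 6.54 ± 0.42 and, after 72 h, 5.64 ± 0.11. At 0.5 mM it was 8.05 ± 0.11, 7.91 ± 0.10, 7.19 ± 0.11 and 6.11 ± 0.11. At 10 mM it was 7.22 ± 0.07, 7.28 ± 0.10, 7.32 ± 0.13 and 7.33 ± 0.05. Solvent and low-dose medians started near 8 and ended near 6, and the high-dose medians held close to 7.3 from 24 h on. Of single early-low genes, 30.5% rose and 18.8% fell by 0.4 or more at 10 mM from 12 to 72 h. In DMSO at 48 h replicate 1 had gone further than its partners, with an early-high median of 7.34 against 6.77 and 6.90, and an early-low median of 6.06 against 6.71 and 6.84. It was 1 of the 6 arrays with a weak spiked-in control.

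**Figure D2:**
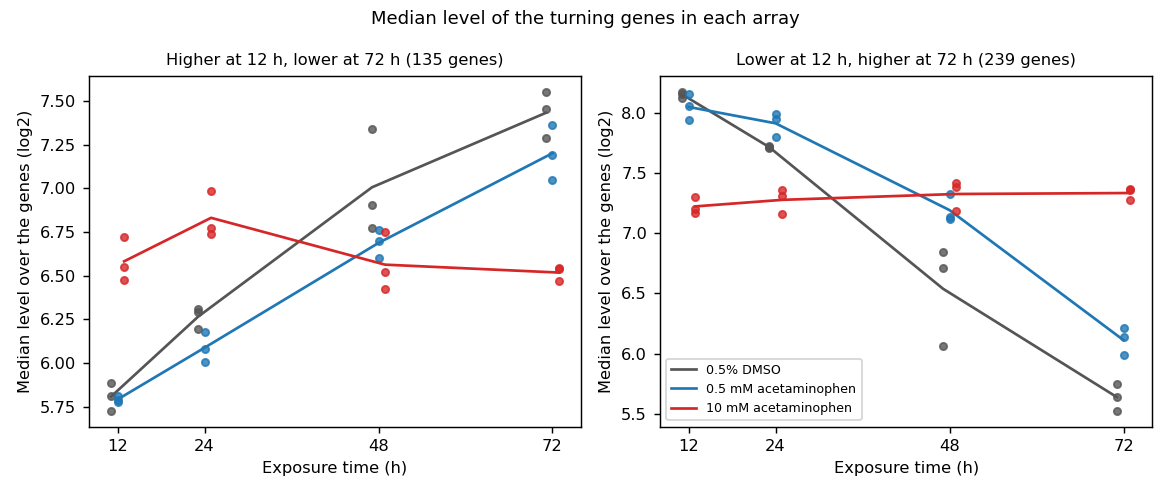
Median log2 level over the 135 early-high genes (left) and the 239 early-low genes (right) in every array (points, offset slightly sideways by treatment) against exposure time (h), with lines through the mean of the 3 arrays. DMSO and 0.5 mM arrays rose on the left and fell on the right, while the 10 mM arrays lay between 6.42 and 6.98 on the left and between 7.16 and 7.41 on the right at all times.

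The turn itself was tested on the 24 and 48 h arrays, which had no part in choosing the genes. A gene with opposite signs at 12 and 72 h must turn somewhere between them, so these tests bear on when it turned and on which treatment moved. Calls are from limma with a Benjamini-Hochberg adjusted p under 0.05 over all 18919 genes, and each count stands beside the share of all genes called. Between 24 and 48 h the 10 mM effect fell in 73 of 135 early-high genes (54.1%, against 3.3% of all genes) and rose in 0, where 4.02% of all genes rose. At an unadjusted p under 0.05 the counts were 97 lower and 0 higher, against 8.74% and 9.51% of all genes. It rose in 154 of 239 early-low genes (64.4%) and fell in 0, with 202 and 0 at an unadjusted p under 0.05. The median change was -0.76 in early-high and 1.01 in early-low genes, against 0.01 over all genes, and it pointed towards the turn in 133 of 135 and 235 of 239. Without replicate 1 of DMSO at 48 h, 57 early-high and 122 early-low genes passed. Leaving out the arrays with weak spiked-in controls, which reduces each of the 4 groups to 2 arrays, 33 and 95 passed.

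Seen at each time separately, many genes had already crossed by 48 h. At 24 h, 62 early-high genes were called higher at 10 mM than in DMSO and 4 lower, where 15.3% of all genes were called higher and 13.7% lower. At 48 h, 5 were called higher and 60 lower, against 16.3% and 14.9% of all genes. Of the early-low genes, 3 were called higher and 99 lower at 24 h, and 140 were called higher and 1 lower at 48 h. Counted without a test, the 3 arrays at 10 mM lay above all 3 DMSO arrays in 72 early-high genes at 24 h and below them in 6, where 20.5% and 19.7% of all genes had such gaps. At 48 h they lay above in 3 and below in 61, against 18.7% and 17.3% of all genes. For early-low genes the counts were 5 above and 131 below at 24 h, and 128 above and 0 below at 48 h. The remaining genes had overlapping arrays. At 48 h the counts depended on the DMSO array that stood apart. Without it 9 early-high genes were called higher and 46 lower, and 109 early-low genes were called higher and 13 lower. Leaving out all arrays with weak spiked-in controls, 43 early-high genes were higher and 78 early-low genes lower at 24 h. At 48 h that left 9 early-high genes higher and 41 lower, and 97 early-low genes higher and 9 lower.

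By the sign of the mean difference, most genes turned between 24 and 48 h. This held for 92 early-high genes (68.1%) and 176 early-low genes (73.6%). Before 24 h, 24 early-high (17.8%) and 35 early-low genes (14.6%) had turned, and after 48 h, 19 (14.1%) and 27 (11.3%) did so. The classes use signs alone. In the genes that had turned before 24 h the median 24 h differences were small, -0.10 and 0.16. Only 4 early-high genes were called lower and 3 early-low genes higher at 24 h, where 13.7% and 15.3% of all genes were. A single early-low gene crossed 0 more than once. Without the weak spiked-in arrays, 81 early-high and 145 early-low genes turned between 24 and 48 h, 18 and 43 before it, and 35 and 49 after it, so the late class grew by over 1.5 times in both sets. The 19 late-turning early-high genes had a median DMSO level of 4.29 at 12 h and 4.21 at 24 h that reached 6.39 at 72 h, and a median difference that was still 0.34 at 48 h. Among the 35 early-low genes that turned before 24 h, the median DMSO level had dropped from 6.52 at 12 h to 5.71 at 24 h, and that at 10 mM had gone from 5.58 to 5.99.

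In most of these genes the DMSO level moved more than the 10 mM level. From 24 to 48 h in DMSO, 75 early-high genes rose and 0 fell, where 6.75% of all genes rose and 7% fell, and the median change was 0.53. Of the early-low genes, 1 rose and 178 fell in DMSO, with a median change of -0.92. In the 10 mM cultures 4 early-high genes rose and 25 fell, against 3.31% and 2.85% of all genes, and the median change was -0.25. For early-low genes these counts were 26 and 5, with a median of 0.04. The early-high count of 25 became 14 without replicate 1 at 24 h and 16 without replicate 2 at 48 h, and the early-low count of 26 became 16 without replicate 2 at 24 h. Without the weak spiked-in arrays these 2 counts were 17 and 20.

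Set side by side over the same interval, more genes passed the test in the solvent cultures alone than in the high-dose cultures. Of all 18919 genes, 11.7% changed in DMSO alone, 4.15% at 10 mM alone, 2.01% in both and 82.1% in neither, and 0.396% changed in both in opposite directions. Among the 135 early-high genes 61 changed in DMSO alone, 15 at 10 mM alone, 14 in both and 45 in neither. Of the 14, 11 moved in opposite directions. Among the 239 early-low genes 165 changed in DMSO alone, 17 at 10 mM alone, 14 in both, 8 of them in opposite directions, and 43 in neither. The size of the DMSO change exceeded that of the 10 mM change in 95 of 135 early-high genes (70.4%) and 194 of 239 early-low genes (81.2%), against 52.8% of all genes. A change called in DMSO and not at 10 mM does not by itself show a difference; that difference is the change of the effect tested above. Without replicate 1 of DMSO at 48 h, 59 early-high genes rose and 146 early-low genes fell in DMSO. Leaving out the arrays with weak spiked-in controls, 44 and 133 did.

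**Figure D3:**
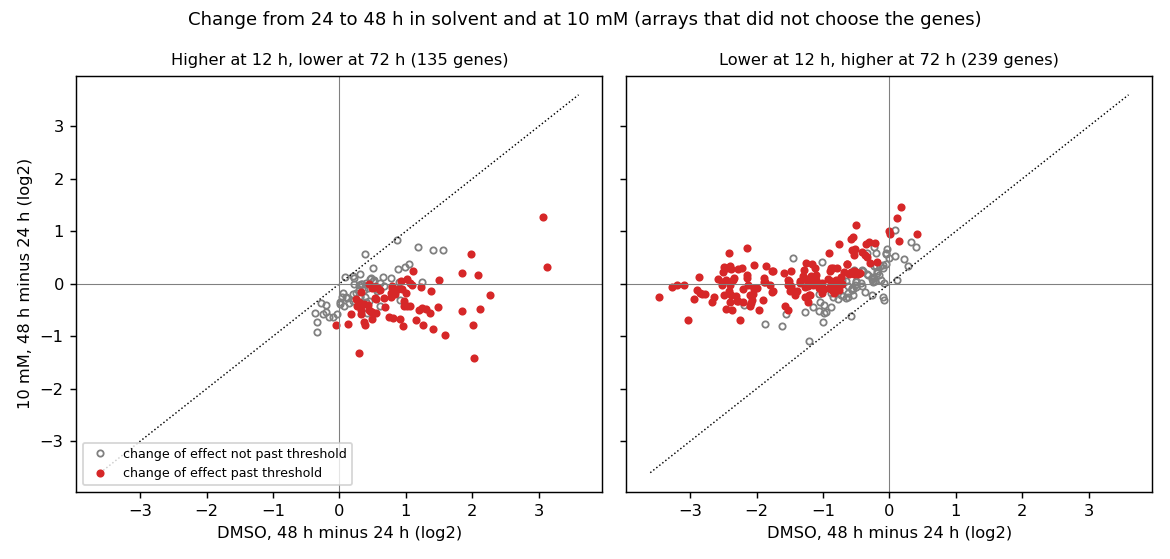
Change from 24 to 48 h at 10 mM (vertical axis, log2) against the change over the same interval in DMSO (horizontal axis, log2), 1 point per gene, for early-high (left) and early-low genes (right); filled points are genes whose 10 mM effect changed (73 and 154) and the dotted line marks equal change. The points run from -0.36 to 3.12 (left) and from -3.47 to 0.41 (right) along the horizontal axis, with DMSO medians of 0.53 and -0.92, and from -1.42 to 1.27 and from -1.09 to 1.46 along the vertical axis, with 10 mM medians of -0.25 and 0.04.

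Sorting the genes by how far each treatment moved from 12 to 72 h gave 4 main classes, described without a test because the same arrays chose the genes. The DMSO level moved by 0.4 or more towards the turn while the 10 mM level stayed within 0.4 in 61 early-high (45.2%) and 121 early-low genes (50.6%). Both levels moved in opposite directions in 34 (25.2%) and 49 (20.5%). Both moved the same way, DMSO further, in 23 (17.0%) and 45 (18.8%). The 10 mM level moved while DMSO stayed within 0.4 in 17 (12.6%) and 22 (9.21%), and 2 early-low genes fell in none of these. Without the weak spiked-in arrays the class with a steady 10 mM level held 62 and 111 genes, and that with a steady DMSO level 17 and 22. The class moving in opposite directions then held 36 and 56, and that moving the same way 20 and 48. Genes whose high-dose level moved against a steady control were thus the smallest of the 4 classes in both sets.

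The 0.5 mM cultures gave a measure of change with time that the choice of genes had not used. From 12 to 72 h at 0.5 mM, 110 of 135 early-high genes rose (81.5%) and 0 fell, where 14.6% of all genes rose and 15.2% fell. At an unadjusted p under 0.05, 114 rose and 1 fell, against 18.9% and 18.1% of all genes. Of the early-low genes 213 of 239 fell (89.1%) and 3 rose. The median change at 0.5 mM was 1.12 in early-high and -1.54 in early-low genes. Over the same times the DMSO medians were 1.17 and -1.57, and the 10 mM medians were -0.23 and 0.12. Those DMSO and 10 mM values come from the arrays that chose the genes and are a description only. Without the 2 arrays of high beta-actin end difference the counts were 106 and 210. By class, the low-dose change passed in 57 of the 61 early-high genes with a moving DMSO level and a steady 10 mM level, and in 3 of the 17 with a steady DMSO level. In early-low genes these counts were 119 of 121 and 5 of 22. The counts by class take calls in either direction, where 14.6% of all genes rose and 15.2% fell. The classes were cut by the DMSO and 10 mM changes over the same times, and the difference between the classes was not tested.

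For comparison, genes whose 10 mM effect kept its sign moved less with time at 0.5 mM and in both directions, though not evenly. From 12 to 72 h at 0.5 mM, 180 (14.31%) rose and 453 (36.01%) fell among the 1258 genes above DMSO at both times. Their median change was -0.17. Of the 1107 genes below DMSO at both times, 345 (31.17%) rose and 229 (20.69%) fell, with a median of 0.07. Over all genes 14.6% rose and 15.2% fell, so the first group fell and the second rose more often than all genes did. Between 24 and 48 h the 10 mM effect rose in 109 (8.67%) and fell in 44 (3.5%) of the first group, and rose in 40 (3.61%) and fell in 79 (7.14%) of the second, against 4.02% and 3.3% of all genes. All of these groups were cut from the same 12 and 72 h values of 10 mM and DMSO. That choice favours a moving DMSO level in the turning genes, and the 0.5 mM medians lay near those of DMSO. The contrast between these groups and the turning genes was thus in part set by the choice, and it was not itself tested.

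Gene by gene, a larger low-dose change with time went with a larger change of the 10 mM effect. Pearson's r between the 12 to 72 h change at 0.5 mM and the 24 to 48 h change of the 10 mM effect was -0.75 over the 135 early-high genes and -0.83 over the 239 early-low genes, with Spearman's rho of -0.71 and -0.79. Over all 18919 genes r was -0.71 and rho -0.46. These quantities share no array, but they are correlations across genes, which are not independent replicates, and are given as a description. The relation was therefore present over the whole table and is not peculiar to the turning genes.

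**Figure D4:**
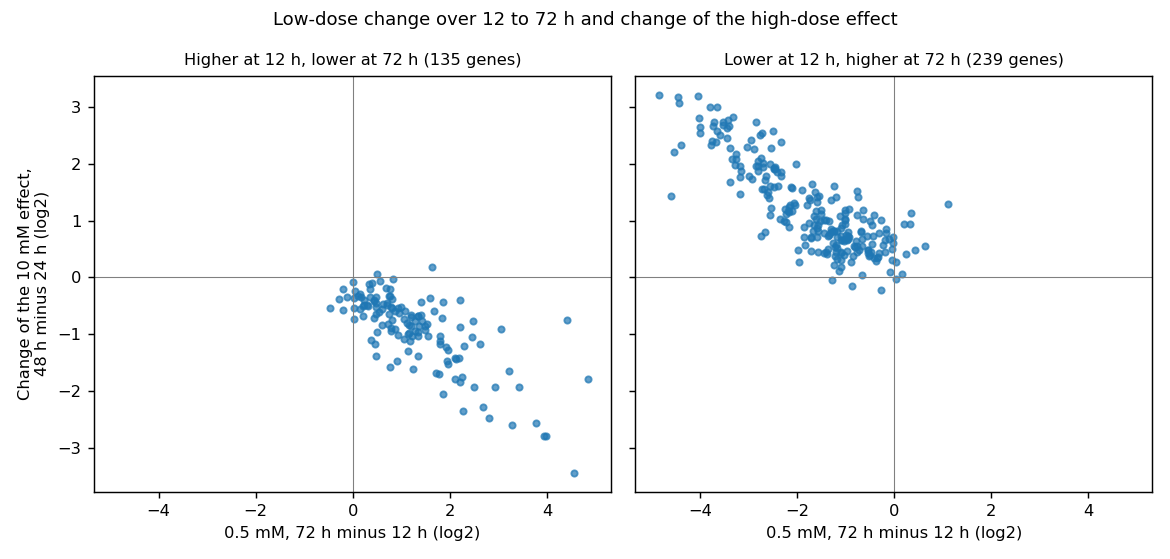
Change of the 10 mM minus DMSO difference from 24 to 48 h (vertical axis, log2) against the change at 0.5 mM from 12 to 72 h (horizontal axis, log2), 1 point per gene, for early-high (left) and early-low genes (right). Early-high genes lie mostly in the lower right quadrant (median 1.12 and -0.76) and early-low genes mostly in the upper left (median -1.54 and 1.01).

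The low dose was also set against DMSO at the times the choice had not used. These comparisons share their DMSO arrays with the 10 mM comparisons above. At 24 h 0 early-high and 0 early-low genes were called in either direction, where 0.0106% of all genes were called higher and 0.00529% lower; at an unadjusted p under 0.05, 1 early-high gene was higher and 10 lower, and 32 early-low genes were higher and 2 lower, against 3.47% and 2.7% of all genes. The median differences were -0.09 and 0.16. With the replicate number as a block, 1 early-high gene was called lower and 1 early-low gene higher. At 48 h 0 early-high genes were higher and 11 lower, with a median of -0.27, and 92 early-low genes were higher and 0 lower, with a median of 0.49, against 2.6% and 0.846% of all genes. The 10 mM medians against the same DMSO arrays were -0.38 and 0.58.

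These 48 h counts rested on few arrays. Without replicate 1 of DMSO they were 1 early-high and 53 early-low genes, and without replicate 3 of DMSO 21 early-high genes passed. Without replicate 2 at 0.5 mM, which had a high beta-actin end difference, 2 early-high genes passed, and without both arrays of that kind 2 early-high and 77 early-low genes did. With the replicate number as a block, which the arrays bore out at 48 h, the counts were 20 and 118. In a fit to the arrays of these 2 groups alone they were 0 and 1.

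Of the early-high genes, ENSG00000180596 and ENSG00000180573 stood farthest inside the threshold at both ends and are given in full. The DMSO arrays of ENSG00000180596 read 5.01, 5.03 and 5.41 after 12 h, then 5.43, 5.42 and 5.30 after 24 h, then 7.94, 7.78 and 7.25 after 48 h and finally 7.81, 8.12 and 8.69. The high-dose arrays read 7.69, 8.66 and 7.81 after 12 h, then 6.52, 7.0 and 6.44 after 24 h, then 6.56, 6.27 and 6.51 after 48 h and finally 6.46, 6.94 and 6.69. At 0.5 mM it read 5.04, 5.23 and 4.72, then 4.85, 5.34 and 4.50, then 6.41, 6.31 and 6.97, and finally 7.75, 7.73 and 7.90. All high-dose arrays lay above all DMSO arrays at 24 h and below all of them at 48 h. The difference was 1.27 ± 0.24 (SE) at 24 h (adjusted p = 0.0001) and -1.21 ± 0.24 at 48 h (adjusted p = 0.00018), and it changed by -2.48 ± 0.34 between them (adjusted p = 1.6e-05). In DMSO the level rose by 2.27 ± 0.24 from 24 to 48 h (adjusted p = 5.8e-08), and at 10 mM its change was -0.21 ± 0.24 (adjusted p = 0.75). In a fit to the 2 DMSO groups alone the adjusted p of the DMSO rise was much larger, though still under 0.05. At 0.5 mM the level rose by 2.80 ± 0.24 from 12 to 72 h (adjusted p = 1.3e-10). The low dose minus DMSO at 48 h was -1.09 ± 0.24 (adjusted p = 0.007). Without replicate 2 at 0.5 mM this was -0.96 (adjusted p = 0.0637) and without replicate 1 of DMSO -0.95 (adjusted p = 0.0896). A fit to the 0.5 mM and DMSO arrays at 48 h alone gave an adjusted p of 0.296.

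ENSG00000180573 rose between 24 and 48 h in the high-dose cultures as well as in DMSO. Its DMSO arrays read 6.51, 6.74 and 6.56 after 12 h, then 6.74, 7.33 and 7.32 after 24 h, then 10.87, 9.99 and 9.74 after 48 h and finally 11.15, 11.21 and 11.32. The high-dose arrays read 9.21, 10.12 and 9.81 after 12 h, then 8.41, 8.87 and 8.91 after 24 h, then 9.92, 10.17 and 9.92 after 48 h and finally 9.62, 9.98 and 9.92. At 0.5 mM it read 6.26, 6.28 and 7.12, then 6.72, 7.53 and 6.30, then 9.81, 9.56 and 9.66, and finally 11.31, 11.42 and 11.42. The high-dose arrays stood above DMSO at 24 h, lay among the DMSO arrays at 48 h, and stood below them at 72 h. The difference was 1.60 ± 0.27 at 24 h (adjusted p = 1.7e-05) and -0.20 ± 0.27 at 48 h (adjusted p = 0.66), a change of -1.80 ± 0.38 (adjusted p = 0.002). Between 24 and 48 h the level rose in DMSO by 3.07 ± 0.27 (adjusted p = 2.1e-09) and at 10 mM by 1.27 ± 0.27 (adjusted p = 0.0028). The adjusted p of the DMSO rise was much larger in a fit to the 2 DMSO groups alone, though still under 0.05. Without replicate 1 of DMSO at 48 h the 48 h difference was 0.14, on the other side of 0. With the weak spiked-in arrays left out the change of the effect was -1.15 and missed the threshold (adjusted p = 0.106).

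Among early-low genes the corresponding identifiers were ENSG00000101447 and ENSG00000175063. The DMSO arrays of ENSG00000101447 read 10.11, 10.19 and 10.16 after 12 h, then 9.43, 9.66 and 9.85 after 24 h, then 6.50, 7.37 and 8.04 after 48 h and finally 5.77, 5.59 and 5.62. The high-dose arrays read 7.54, 7.68 and 7.86 after 12 h, then 7.79, 7.16 and 7.98 after 24 h, then 7.50, 7.63 and 8.14 after 48 h and finally 7.81, 7.31 and 8.04. Its 0.5 mM levels were 9.80, 9.92 and 9.74, then 9.85, 9.92 and 9.93, then 8.67, 7.27 and 8.94, and finally 6.53, 6.26 and 6.32. Group means at the high dose lay between 7.64 and 7.76, and DMSO arrays lay above it at 24 h, on both sides of it at 48 h and below it at 72 h. The difference was -2.0 ± 0.30 at 24 h (adjusted p = 4.3e-06) and 0.46 ± 0.30 at 48 h (adjusted p = 0.3), a change of 2.46 ± 0.43 (adjusted p = 0.00027). The 48 h value rested on single arrays: it was 0.06 without replicate 1 of DMSO (adjusted p = 0.934), 0.27 without replicate 3 at 10 mM (adjusted p = 0.628) and 0.83 without replicate 3 of DMSO (adjusted p = 0.0423). With the GAPDH end difference as a covariate it was 0.96 (adjusted p = 0.00872). DMSO fell by 2.35 ± 0.30 between those times (adjusted p = 1.4e-06), and the change at 10 mM was 0.11 ± 0.30 (adjusted p = 0.91). In a fit to the 2 DMSO groups alone the adjusted p of the fall was 0.0119. From 12 to 72 h at 0.5 mM the change was -3.45 ± 0.30 (adjusted p = 1.8e-10). The low dose minus DMSO at 48 h was 1.00 ± 0.30 (adjusted p = 0.065), and this passed with the replicate number as a block (adjusted p = 0.0192), without replicate 2 at 0.5 mM (1.51, adjusted p = 0.00153) and without replicate 3 of DMSO (1.37, adjusted p = 0.00586). It was smaller without replicate 1 of DMSO (0.60, adjusted p = 0.587) and without replicate 3 at 0.5 mM (0.67, adjusted p = 0.322).

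ENSG00000175063 followed a like course. Its DMSO arrays read 9.99, 10.28 and 10.09 after 12 h, then 9.79, 9.90 and 9.74 after 24 h, then 6.79, 7.89 and 8.11 after 48 h and finally 6.32, 6.08 and 6.25. The high-dose arrays read 7.78, 7.68 and 7.95 after 12 h, then 8.15, 7.78 and 8.07 after 24 h, then 7.98, 8.67 and 8.23 after 48 h and finally 8.34, 8.03 and 8.13. Its 0.5 mM levels were 9.79, 10.11 and 10.02, then 10.18, 10.26 and 9.94, then 8.63, 8.65 and 9.03, and finally 6.63, 7.03 and 7.97. All high-dose arrays were below DMSO at 24 h, the groups overlapped at 48 h, and at 48 h all low-dose arrays lay above all DMSO arrays. The 10 mM difference was -1.81 ± 0.25 at 24 h (adjusted p = 1.1e-06) and 0.70 ± 0.25 at 48 h (adjusted p = 0.032), a change of 2.51 ± 0.36 (adjusted p = 2.4e-05). The 48 h value was not firm. It was 0.30 without replicate 1 of DMSO (adjusted p = 0.41) and 0.51 without replicate 2 at 10 mM (adjusted p = 0.189). It was 0.73 without replicate 3 at 10 mM (adjusted p = 0.0544). In a fit to the 10 mM and DMSO arrays at 48 h alone its adjusted p was 0.207. DMSO fell by 2.21 ± 0.25 from 24 to 48 h (adjusted p = 1.8e-07), and the change at 10 mM was 0.29 ± 0.25 (adjusted p = 0.63). In a fit to the 2 DMSO groups alone the adjusted p of the DMSO fall was much larger, though still under 0.05. The low dose was above DMSO by 1.18 ± 0.25 at 48 h (adjusted p = 0.0051), and by 0.77 without replicate 1 of DMSO (adjusted p = 0.121). A fit to the 0.5 mM and DMSO arrays at 48 h alone gave an adjusted p of 0.357.

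**Figure D5:**
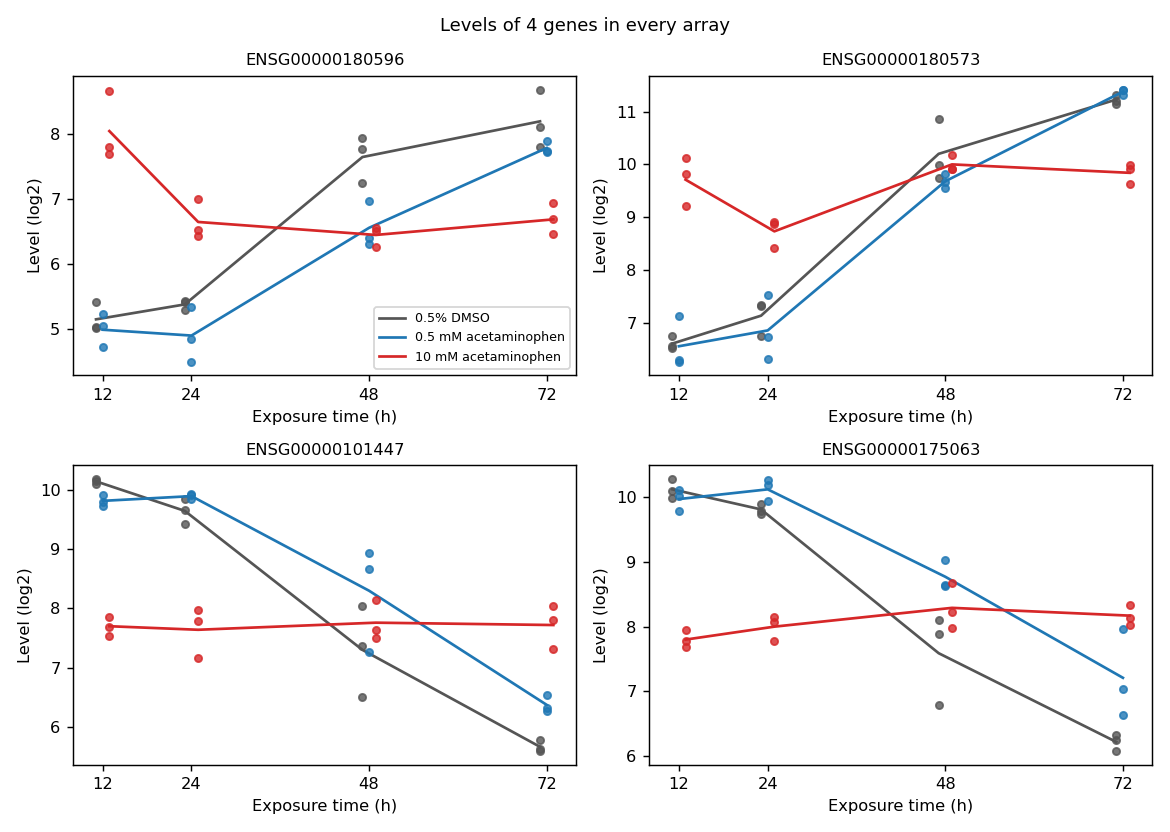
Log2 level of 4 genes in every array (points, offset slightly sideways by treatment) against exposure time (h), with lines through the mean of 3 arrays; the upper genes are early-high and the lower ones early-low. DMSO and 0.5 mM levels crossed the 10 mM levels on their way up in the upper panels and on their way down in the lower panels, with DMSO changes from 24 to 48 h of 2.27, 3.07, -2.35 and -2.21.

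A sign of transcript integrity also moved with time at 10 mM and in DMSO, but showed no steady rise at 0.5 mM. The GAPDH control's 3' minus 5' difference averaged 0.05, 0.12, 0.26 and 0.28 at 10 mM at 12, 24, 48 and 72 h, 0.02, -0.01, 0.08 and 0.19 in DMSO, and 0.12, 0.09, 0.21 and 0.14 at 0.5 mM. With this difference as a covariate, an alternative chosen after seeing the data, the 10 mM effect changed from 24 to 48 h in 77 early-high and 159 early-low genes, against 73 and 154 without it. Levels on these arrays are relative to the rest of the RNA of a sample, so fewer cells expressing a gene and less of its RNA per cell cannot be told apart.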

How the data were processed

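The authors deposited log2 levels for each array and Ensembl gene, made by RMA per the submitters' processing notes. The RMA version, the probe set definition and the genome build were not given in the sources used here. Because RMA equalizes array distributions, a general rise or fall of RNA would be hidden. Of 18981 rows, 62 control rows were set aside and 18919 genes kept without a filter.

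A linear model with 1 mean for each of 12 groups was fitted to 36 arrays with limma 3.58.1 in R 4.3.3 (24 residual degrees of freedom, so groups share 1 estimate of spread). The fit was tried on simulated data with equal spread in all groups, which cannot check it where the spread differs. In the measured data the spread was not equal across groups. In early-low genes the median SD of 3 arrays was 0.41 in DMSO at 48 h against 0.14 in DMSO at 24 h. The shared errors can therefore be too small for comparisons with DMSO at 48 h. P-values were adjusted by Benjamini-Hochberg across all genes. The 12 and 72 h values of 10 mM and DMSO chose the genes and were not tested. Members, lists and tests were chosen with earlier results of these data known. Precision is limited by the number of arrays.

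The reference table (GRCh38.p14, 59792 rows) held no Ensembl identifier, so the planned gene lists, markers and promoter motifs could not be run and no sequence is shown. The identifiers given are the 2 of each direction with the largest smaller difference at 12 and 72 h.

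Replicate numbers come from the titles. All 3 same-numbered pairs correlated above 0.1 in 4 of 7 group comparisons (10 mM against DMSO at 24 and 48 h, 10 mM at 24 against 48 h, 0.5 mM against DMSO at 48 h) and were taken to pair the arrays there. Figures were drawn with matplotlib 3.10.9.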

Additional observations from a re-analysis of the deposited data

Results flagged for a closer look

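The effect of 10 mM against DMSO differed between 24 and 48 h, by a test of the difference itself. It was lower at 48 h in 73 early-high genes, against 3.3% of all genes, and higher in 154 early-low genes, against 4.02%. The choice of genes required a turn at some time, so these counts bear on when it came. They were 33 and 95 without the weak spiked-in arrays, and 43 and 97 with only the groups compared in the fit. Among the genes given by identifier the change was -2.48 in ENSG00000180596, -1.80 in ENSG00000180573, 2.46 in ENSG00000101447 and 2.51 in ENSG00000175063 (log2).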

How the results depend on the processing

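Each count of calls was recomputed with each array left out, with the replicate number as a block, with only the groups compared in the fit, with array weights, with other scalings, with a filter at a mean level of 4 and without the doubted arrays. Leaving single arrays aside, 149 such values for the main counts stayed within 1.5 times the reported count and 23 did not. With only the groups compared, the 10 mM effect changed from 24 to 48 h in 43 early-high and 97 early-low genes, 12 early-high genes fell and 15 early-low genes rose at 10 mM, and 0 and 1 passed for 0.5 mM against DMSO at 48 h. Without the weak spiked-in arrays these counts were 33 and 95 for the change of effect, 44 early-high genes for the rise in DMSO, and 2 and 49 for the low dose at 48 h. The low dose at 24 h gave 1 early-high and 1 early-low gene with the block, with array weights and without those arrays, and 1 early-low gene after a second quantile normalization. Its early-high count at 48 h was 20 with the block, 3 with array weights and 2 without the arrays of high beta-actin difference, an alternative added after seeing the data. In the paired fit with the replicate block the change of effect was called in 86 and 175 genes, and the block moved no main count by over 1.5 times besides those of the low dose given above. Leaving out 1 array at a time gave 57 to 77 early-high and 122 to 163 early-low genes for the change of effect, 14 to 24 and 16 to 21 for the change at 10 mM, and 1 to 21 and 53 to 115 for the low dose at 48 h. The 48 h difference of ENSG00000180573 was 0.18 without the weak spiked-in arrays and -0.43 to 0.14 with 1 array left out. The change of ENSG00000101447 at 10 mM was -0.013 with array weights, -0.0018 without those arrays and -0.13 to 0.28 with 1 array left out. With thresholds of 0.3 and 0.5 in place of 0.4, 277 and 81 genes were early-high. Fits without some arrays or groups had fewer arrays, and the causes of these shifts were not otherwise tested.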
